A study of Mus musculus with 66 samples.

Results

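The Affymetrix expression arrays described here are the 2 labelled 9 d after cardiotoxin in a time series of regenerating mouse gastrocnemius, set against the 2 arrays at 8.5 d and the 2 at 9.5 d. These 6 are part of 54 arrays of the later array version, called Av2 in the labels, and of 66 arrays in all. The members were chosen by the measured intensities of this same comparison, in which inflammatory genes had been seen to stand high at 9 d, so its values are given as a description with no p for any gene. Cardiotoxin is a snake venom peptide that lyses muscle fibres and leaves satellite cells, the muscle stem cells, to rebuild them. On Av2 the series holds 26 times from 12 h to 40 d after injection and an untreated control, each with 2 arrays. The 9 d, 8.5 d and 9.5 d groups are given by their labels as skeletal muscle at those times after cardiotoxin, with no dose or age, and the description field of a 9 d array holds only asterisks. A dose of 100 µl of 10 µM cardiotoxin stands on 10 labels, all of the earlier array version, called A, and an age of 8 weeks on the 4 labels of untreated muscle. Genotype, strain and sex do not stand on the labels, and nothing says whether the 2 arrays of a time came from separate animals, so p-values measure only the spread between arrays. The sample codes in the titles carry the numbers 1 and 2 for the pairs at 8.5 d, 9 d and 9.5 d. On Av2 both arrays of 1 d carry the number 1, and the pairs of several later times also share a number. On A both arrays of 1 d share a number too. Each such pair may share a source. The 1 d pairs enter the early tests below, and all such Av2 pairs enter the spread pooled over the 54 arrays.

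Injured muscle is first entered by neutrophils, drawn by CXC chemokines that bind Cxcr2, and then by monocytes, drawn by CC chemokines such as Ccl2 that bind Ccr2. Interleukin 1 and tumour necrosis factor act through the transcription factor NF-kB, which switches on chemokine genes, adhesion molecules and its own inhibitors. In regeneration after a single injury this early wave is known to recede as macrophages change towards repair and new fibres form.

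The 6 arrays differed in some general measures. Between 78.7% and 82.8% of probe sets lay above 64.7, the floor to which lower intensities were raised before log2 values were taken. The 2 arrays at 9 d correlated at 0.945, and of the 27 pairs, from 0.903 to 0.981, those of 12 h and 1 d alone were lower. Spiked control transcripts were brighter at 9 d: BioB gave 4192 and 6956 against 1460 to 2031 on the neighbours. BioC, with 6464 and 11243 against 2353 to 3464, BioDn and Cre also lay above all neighbours. For BioB, BioC and Cre replicate 2 was the highest of the 54 arrays. The ratio of the 3' to the 5' control probe set of Gapdh was 0.754 and 0.863 at 9 d, 0.428 to 0.686 on 3 neighbours and 0.0439 on 9.5 d replicate 2, the lowest of the 54. For b-actin the same ratio was 1.38 on that array, the highest of the 54. That array also gave the lowest 3' Gapdh value of all, 433.7, and it recurs below where muscle genes are described.

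A gene was said to stand high when both 9 d arrays lay above all 4 neighbours and the mean log2 values were at least 2-fold apart, and to stand low in the opposite case. By this description 196 of 8251 genes stood high at 9 d, which is 2.38%, and 94 stood low, which is 1.14%. Over probe sets these were 273 of 12422 (2.2%) and 149 (1.2%). Of 150 measured genes in 7 inflammatory lists, 38 stood high and 2 stood low, Ccr4 and Cd55. Since these genes were chosen for this contrast, the share of 25.3% is read as no evidence in itself. With no limit on size 78 of the 150 lay above all 4 neighbours, where 10.8% of all genes did, and 123 had a positive difference. The median difference of the 38 was 1.77 on the log2 scale, from 1.02 to 6.30. For 9 of the 38 at least 1 neighbour lay under the floor, so the size of their difference depends on it. All 150 inflammatory genes but 1 passed the filter of 2 arrays above the floor, and as many did so with the 9 d arrays left out of it. The members nearest to the threshold were Cxcl12 at 1.02 and Ccr2 at 1.04, and just outside it lay Cebpb at 0.99 and Csf3 at 0.94.

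**Figure D1:**
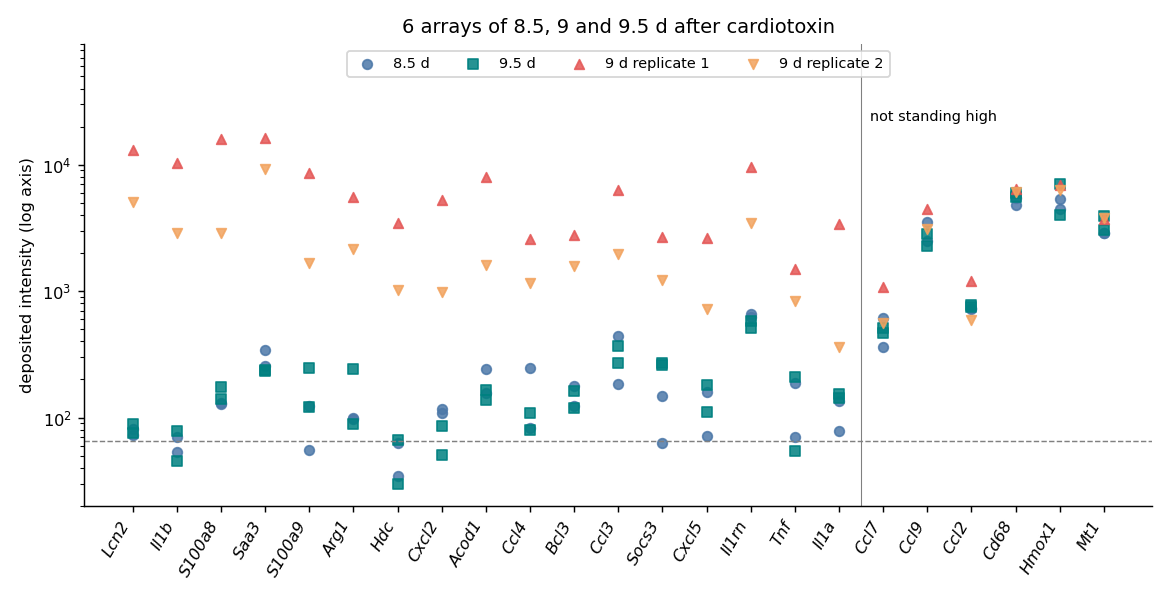
Deposited intensity on a log axis for 17 genes that stood high at 9 d and, right of the vertical line, 6 that did not; each point is 1 array and the dashed line is the floor of 64.7. Both 9 d arrays lie above every neighbour for the 17 genes, with replicate 1 the higher, and mix with the neighbours for Ccl2, Hmox1 and Mt1.

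Genes of neutrophils led the difference, ahead of the chemokines. Lcn2, a protein of neutrophil granules that binds bacterial iron carriers, measured 13063 and 5064 at 9 d, 73.3 and 80.5 at 8.5 d and 88.7 and 76.0 at 9.5 d. Both 9 d arrays were far above the neighbours, and the difference of 6.68 was the largest of all genes that stood high. S100a8, a subunit of calprotectin, which fills the neutrophil cytosol, measured 16089 and 2889 at 9 d, 129 and 128 at 8.5 d and 141 and 175 at 9.5 d. Its partner S100a9 measured 8661 and 1675 at 9 d, 55.6 and 124 at 8.5 d and 245 and 120.3 at 9.5 d. For both partners the lower 9 d array was several times above the highest neighbour, and replicate 1 was more than 5 times replicate 2. Among other granule genes, Ngp stood 3.03 higher, Mmp9, a gelatinase, 2.53, Chil1 2.47 and Ltf, lactoferrin, 2.41. The surface markers Fpr2, a receptor for formylated peptides, and Ly6g stood 2.76 and 1.36 higher. In all, 11 of 20 measured neutrophil genes stood high and none low, with a median of 1.32 beside 0 over all genes. The azurophil granule genes made by immature cells in bone marrow did not reach 2-fold: Mpo gave 231 and 172 at 9 d against 72.0 to 193 on the neighbours, and Elane 633 and 977 against 436 to 579.7. The summed intensity of the list was 65287 and 25986 at 9 d, 8465 to 11013 on the neighbours and 6776 to 7135 in untreated muscle. In bulk tissue a difference in the number of cells of a type and one in RNA per cell cannot be told apart.

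The agonists Il1a and Il1b of the interleukin 1 family stood high together with an antagonist and a decoy receptor. Il18, a cytokine of the same family, did not, at 0.59. Il1b, the secreted agonist made by activated myeloid cells, measured 10383 and 2871 at 9 d, 70.1 and 53.5 at 8.5 d and 78.2 and 45.7 at 9.5 d. No neighbour exceeded 78.2, and 2 of them lay under the floor. Il1a, the other agonist, measured 3412 and 360.0 at 9 d, 77.6 and 136 at 8.5 d and 154 and 143 at 9.5 d. Its 2 arrays at 9 d differed more than those of Il1b, but the lower was still above every neighbour. Il1rn, the receptor antagonist, measured 9606 and 3467 at 9 d, 629 and 659.9 at 8.5 d and 579 and 512 at 9.5 d. A decoy receptor, Il1r2, stood 1.88 higher, with 1473 and 558 at 9 d and at most 349.7 on a neighbour. The signalling receptor Il1r1 did not meet the description, with 1014 and 549 at 9 d and 450.4 to 569.6 on the neighbours.

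Saa3, an acute phase apolipoprotein made locally by macrophages and stromal cells, measured 16283 and 9159 at 9 d, 341 and 255 at 8.5 d and 236 and 234 at 9.5 d. Its difference of 5.54 was the largest among the 38 after that of Il1b. Tnf measured 1487 and 840.2 at 9 d, 69.9 and 186 at 8.5 d and 208 and 54.3 at 9.5 d, and both 9 d arrays again lay above all neighbours. Its receptor Tnfrsf1b stood 1.42 higher, while the receptor Tnfrsf1a, with 2632 and 2257 against 1487 to 1826, lay above the neighbours by less than 2-fold. Il6 was dim, with 157 and 152 at 9 d and 62.7 to 89.1 on the neighbours, but it met the description at 1.09. Csf2rb, Il10ra and Il4ra, receptor chains of myeloid and other leukocytes, stood 1.85, 1.31 and 1.21 higher. For Csf2rb this rested on replicate 1, with 1332 and 178 at 9 d and 118 to 171 on the neighbours. Il10ra measured 660.0 and 230 at 9 d and 132 to 198 on the neighbours. In total 11 of 31 measured cytokine and receptor genes stood high, with a median of 0.62 over the list. Ifng, the cytokine of activated T and natural killer cells, was under the floor on all 6 arrays.

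The chemokines divided. Of 14 measured CC chemokines 3 stood high, with a list median of 0.39, and of 11 CXC and other chemokines 4 did, with a list median of 0.75. Cxcl2, a neutrophil attractant that binds Cxcr2, measured 5277 and 983 at 9 d, 116 and 109 at 8.5 d and 86.0 and 50.5 at 9.5 d. Cxcl5 and Cxcl1, ligands of the same receptor, stood 3.48 and 2.66 higher, with 2630.3 and 719 and with 1233 and 608 at 9 d. In all 3 the lower 9 d array was above the highest neighbour, 116 for Cxcl2, 182 for Cxcl5 and 149.8 for Cxcl1. Ccl3, which recruits myeloid cells through Ccr1, measured 6296 and 1958 at 9 d, 184 and 441 at 8.5 d and 270.5 and 365 at 9.5 d. Its neighbour in the genome, Ccl4, an attractant of myeloid cells and lymphocytes, measured 2576 and 1155 at 9 d, 82.9 and 247 at 8.5 d and 109 and 79.2 at 9.5 d. Both genes were clear of every neighbour. Ccl8 was already at 1351 to 1955 on the neighbours and stood at 4547 and 2788 at 9 d. Cxcl12, made by stromal cells, measured 2981 and 2167 at 9 d and 1187 to 1408 on the neighbours.

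Ccl2, the main monocyte attractant, did not stand high. It measured 1204 and 589 at 9 d, 739 and 727 at 8.5 d and 747 and 782 at 9.5 d. Replicate 1 lay above all of them and replicate 2 below, and the difference was 0.17. Ccl7, which shares Ccr2 with it, differed by 0.69 and Ccl9 by 0.42, both with overlap. Ccl5 differed by 1.06, past 2-fold, but its lower 9 d array, at 745, was under a 9.5 d array at 946. The interferon target Cxcl10 lay above all neighbours by less than 2-fold, at 0.83. With 7 of 25 chemokines high, and neutrophil and interleukin 1 genes leading, the name of a chemokine burst covers the 9 d arrays only in part.

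Promoter sequences are shown for the members in which a search found an NF-kB motif just before the start of transcription. The search used 1 window per gene from RefSeq on GRCm38.p6, from 250 bases before to 50 bases after the start, both strands, and the letters GGG, any 2 bases and TTTCC. A match was found in 6 of the 33 members with a window (18.2%), in 7 of 87 other inflammatory genes measured (8.05%) and in 438 of 27025 genes of the whole table (1.62%). The letters of a C/EBP motif, TTGCNNAA, were found in 5 of the 33 (15.2%), 10 of the 87 (11.5%) and 2906 of the 27025 (10.8%). In Il4ra the match lay after the start. The other 5 genes are the chemokines Cxcl1 and Cxcl2, the cytokine Il6, and Nfkbia and Tnfaip3, which encode inhibitors of NF-kB. Each line gives the 120 bases before the start, read in the direction of the gene, with the matches in capitals. A match is a description of letters and not a measured binding site.
Cxcl1 (chr5:90891125-90891244, plus strand): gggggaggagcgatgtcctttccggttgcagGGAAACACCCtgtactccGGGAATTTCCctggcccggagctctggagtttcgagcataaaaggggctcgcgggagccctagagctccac
Cxcl2 (chr5:90903779-90903898, plus strand): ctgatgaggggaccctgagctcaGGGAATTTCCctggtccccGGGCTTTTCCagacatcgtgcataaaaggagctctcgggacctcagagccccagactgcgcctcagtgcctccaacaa
Il6 (chr5:30012994-30013113, plus strand): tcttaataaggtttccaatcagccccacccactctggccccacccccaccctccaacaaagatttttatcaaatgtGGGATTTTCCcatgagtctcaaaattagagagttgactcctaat
Nfkbia (chr12:55492648-55492767, minus strand): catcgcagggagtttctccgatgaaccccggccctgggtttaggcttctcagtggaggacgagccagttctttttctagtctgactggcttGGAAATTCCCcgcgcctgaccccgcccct
Tnfaip3 (chr10:19015411-19015530, minus strand): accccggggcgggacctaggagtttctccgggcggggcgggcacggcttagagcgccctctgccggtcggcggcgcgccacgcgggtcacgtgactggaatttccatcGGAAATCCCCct
The pair of chemokine genes each held 2 matches, the nearer beginning 71 bases before the start in Cxcl1 and 78 in Cxcl2. In Il6, Nfkbia and Tnfaip3 the single match began 44, 29 and 12 bases before the start.

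Receptors of these ligands stood high with some of them. Ccr1, the receptor of Ccl3 on myeloid cells, measured 1895 and 792 at 9 d and 268 to 387 on the neighbours. Cxcr2, the neutrophil receptor of Cxcl1, Cxcl2 and Cxcl5, measured 286 and 227 against 99.0 to 126. Ccr2, the monocyte receptor of Ccl2, measured 2506 and 1667 at 9 d, 751 and 771 at 8.5 d and 1210.2 and 1379.8 at 9.5 d. All 3 were above every neighbour on both 9 d arrays. Ccrl2 and Ackr1, which bind chemokines without classical signalling, stood 1.26 and 1.18 higher. In all 5 of 19 receptors stood high and Ccr4, a receptor of T cells, stood low at -1.02, with 47.9 and 81.4 at 9 d and 97.7 to 456 on the neighbours.

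Feedback inhibitors and other targets of NF-kB stood high as often in number as the cytokines. Of 28 measured regulators 11 stood high and none low, with a median of 0.71. Bcl3, an atypical inhibitor of NF-kB, measured 2757 and 1574 at 9 d, 123 and 179 at 8.5 d and 119 and 162 at 9.5 d. Socs3, which limits signalling by interleukin 6 type receptors, measured 2663 and 1223 at 9 d, 63.4 and 147 at 8.5 d and 268 and 260.2 at 9.5 d. Tnfaip3, a ubiquitin editing enzyme that restrains NF-kB, measured 936 and 403 at 9 d, with 3 of the 4 neighbours under the floor and the highest at 150.2. These 3 genes were clear of the neighbours on both 9 d arrays. Nfkbia, the classical inhibitor, measured 10835 and 5485 at 9 d and 1634 to 2016 on the neighbours, and Nfkbiz 2630.3 and 967 against 256 to 331. Ptgs2, the inducible cyclooxygenase, stood 2.51 higher, Ier3 1.68, Birc3 1.48 and Traf1 1.39. The adhesion molecules Icam1 and Selp stood 1.40 and 1.36 higher, and all 4 neighbours of Traf1 and of Selp were under the floor. The subunits themselves did not reach 2-fold: Rela gave 5944 and 6073 against 5164 to 5709.8, and Relb differed by 0.52.

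Few interferon and complement genes reached 2-fold, though many lay above the neighbours. Of 32 interferon response genes Ifi47, a GTPase, and Ifi30, a lysosomal reductase, stood high at 1.32 and 1.08, 15 lay above all neighbours, and the list median was 0.34. Of 17 complement and Fc receptor genes Fcgr2b, the inhibitory Fc receptor, and Cfp, properdin, stood high at 1.44 and 1.16, and 8 lay above all neighbours. Over all genes 10.8% lay above all neighbours. Summed intensities did not overlap, at 39360 and 31341 against 26122 to 28125 for interferon genes and 70645 and 60130 against 46665 to 53630 for complement and Fc receptor genes. Cd55, which protects cells from complement, stood low, with 234 and 383 at 9 d against 496 to 702 on the neighbours.

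**Figure D2:**
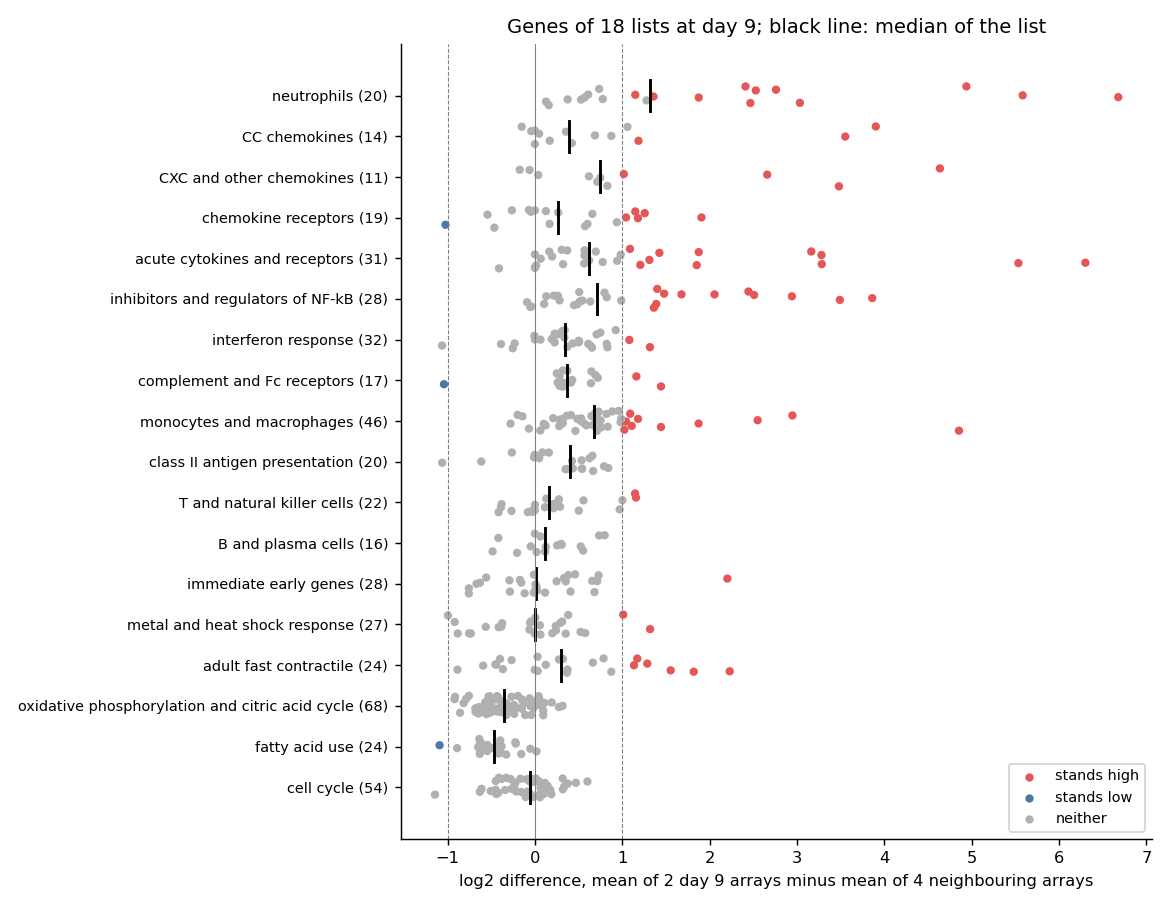
Difference between 9 d and its neighbours on the log2 scale for each measured gene of 18 lists, with 1 point per gene, the list's size in brackets and a black line at its median. Neutrophil genes have the highest median, 1.32, beside 0.71 for NF-kB regulators, 0.62 for cytokines, 0.75 for CXC and 0.39 for CC chemokines, and the dashed lines mark 2-fold.

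Among the other cell types the sample could hold, monocyte and macrophage genes moved with the inflammatory genes in part. Of 46 measured, 10 stood high and none low, with a median of 0.68. Arg1, arginase, measured 5550.4 and 2168 at 9 d, 96.5 and 99.9 at 8.5 d and 89.4 and 239.9 at 9.5 d. Slfn4 and Clec4d, which neutrophils and inflammatory monocytes share, stood 2.95 and 2.55 higher, and Cd14, the coreceptor for endotoxin, 1.87. Acod1, which makes itaconate in activated macrophages, measured 7980.0 and 1616 at 9 d and at most 242 on a neighbour. With no limit on size 28 of the 46 lay above all neighbours, where 10.8% of all genes did. Cd68, a lysosomal protein of macrophages, was among the 28 by less than 2-fold, with 6419 and 6098 against 4788 to 5966. Csf1r, the receptor for macrophage growth factor, differed by 0.70, Fcgr1 by 0.65, C1qa by 0.28 and Mrc1, the mannose receptor, by 0.10. The summed intensity of the list was 298561 and 229281 at 9 d and 160854 to 191292 on the neighbours.

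Hdc, histidine decarboxylase, which mast cells and neutrophils share, measured 3455 and 1019 at 9 d, with 3 neighbours under the floor and the highest at 66.2. It was the single gene to stand high of 15 measured for mast cells and eosinophils. Of 22 T and natural killer cell genes Cd7 and Cd3d stood high, at 1.16 and 1.15, and the list median was 0.16. No gene of 16 for B and plasma cells or of 20 for class II antigen presentation stood high. The summed class II genes were nonetheless 108580 and 88986 at 9 d against 54953 to 68153 on the neighbours. Of 10 erythroid genes Hbb-b2, a haemoglobin chain, stood low at -1.08. Of 14 adipocyte genes Retn, resistin, and Lpl stood low. None of 54 cell cycle genes stood high or low. Lists of endothelium, smooth muscle, nerve and skin held no gene that stood high or low. Of 35 fibroblast and matrix genes Mmp3, a stromelysin, Tgfbi and Col1a1 stood high at 1.74, 1.35 and 1.18. Of these 35 genes 20 lay above all neighbours, where 10.8% of all genes did, with a list median of 0.41. The sums of the list were 393060 and 434077 at 9 d against 248518 to 314400. Its median was 0.19 after quantile normalization and 0.18 against 8 d and 10 d. Col11a1 and Acan, of tendon and cartilage, stood 1.25 and 1.12 higher. The part of these other cell types in the inflammatory difference was not tested.

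Few stress genes stood high. Of 28 immediate early genes Gadd45b stood high, with 2765 and 1167 at 9 d and 344 to 432 on the neighbours, and the list median was 0.01, also with a sign that turned under median scaling. Of 27 metal and heat shock genes Plaur, the urokinase receptor, and Trib3 stood high, at 1.32 and 1.01, and the median was again 0.01, with a sign that turned under median scaling (-0.02). Mt1, a metallothionein, gave 3719 and 3754 at 9 d and 2874 to 3955 on the neighbours. Hmox1, haem oxygenase, gave 6951 and 6327 against 3961 to 7075, and Atf3 differed by -0.56. In all 3 the 9 d arrays overlapped the neighbours.

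The 2 arrays at 9 d were unequal. Replicate 1 exceeded replicate 2 for 37 of the 38 members, Ackr1 being the exception, with a median ratio of 2.11. With replicate 1 left out 27 inflammatory genes stood high, 25 of them among the 38, and with replicate 2 left out 51 did, beside 38 with both. A single 9 d array meets the rule more easily than 2. Of all 8251 genes 413 stood high without replicate 1 and 323 without replicate 2, beside 196 with both. The neutrophil list kept 10 and 13 of 20 genes high in these cases. Of 8 further probe sets for 7 of the members 4 stood high, those of Socs3, Cxcl1, Nfkbia and Il1r2. The other probe sets of Nfkbiz, Il4ra and Cxcl12 did not stand high, at 0.23 for Nfkbiz, -0.40 for Il4ra and 0.80 and 0.87 for Cxcl12.

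Set against 8 d and 10 d, which share the 9 d arrays with the first comparison, the same 38 genes had a median difference of 1.76, from 0.63 to 6.41. Both 9 d arrays lay above all 4 arrays of 8 d and 10 d for 34 of them, as they did for 11.5% of all genes. Against every other array from 3 d to 40 d, 44 in number, both 9 d arrays were the highest for 16 members, and for 0.727% of all genes. The 9 d mean was the highest of all 27 groups, the first days included, for 4.42% of all genes and for 14 members: Il1b, Saa3, Tnf, Il1a, Tnfaip3, Ptgs2, Nfkbiz, Nfkbia, Birc3, Tnfrsf1b, Icam1, Traf1, Ccrl2 and Cxcl12. On 9 d replicate 2 alone Saa3, Tnfaip3, Ccrl2 and Cxcl12 lay above the means of 12 h, 1 d and 2 d. The rest of the 14 lay below the highest of those means, as Il1a did at 360.0 beside 1649 at 2 d.

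Parts of the pattern were also seen at 13 d, and raised neutrophil genes at 4 d. At 13 d S100a8 measured 4998 and 2658, Lcn2 997 and 1053 and Saa3 7131 and 7648, all above the 8.5 d and 9.5 d arrays. Il1b at 13 d was 224 and 368, Cxcl2 100.0 and 139 and Ccl3 655 and 622, far below both 9 d arrays. At 4 d the neutrophil list summed to 25574 and 19789, after 94455 and 52239 at 2 d and 16388 and 14305 at 3 d. Ccl2, which did not stand high at 9 d, was at 6412 and 5235 at 3 d and at 6227 and 9518 at 4 d. The neutrophil sum on 9 d replicate 2, 25986, was thus close to 1 array each of 4 d and 13 d, at 25574 and 25728. Single arrays were raised at other times: S100a8 was 1629 on 7 d replicate 2, and Saa3 was 1268 on 11 d replicate 2 and 3034 on 12 d replicate 1, while their partners gave 346, 77.5 and 59.3. These times were named after their values were seen.

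**Figure D3:**
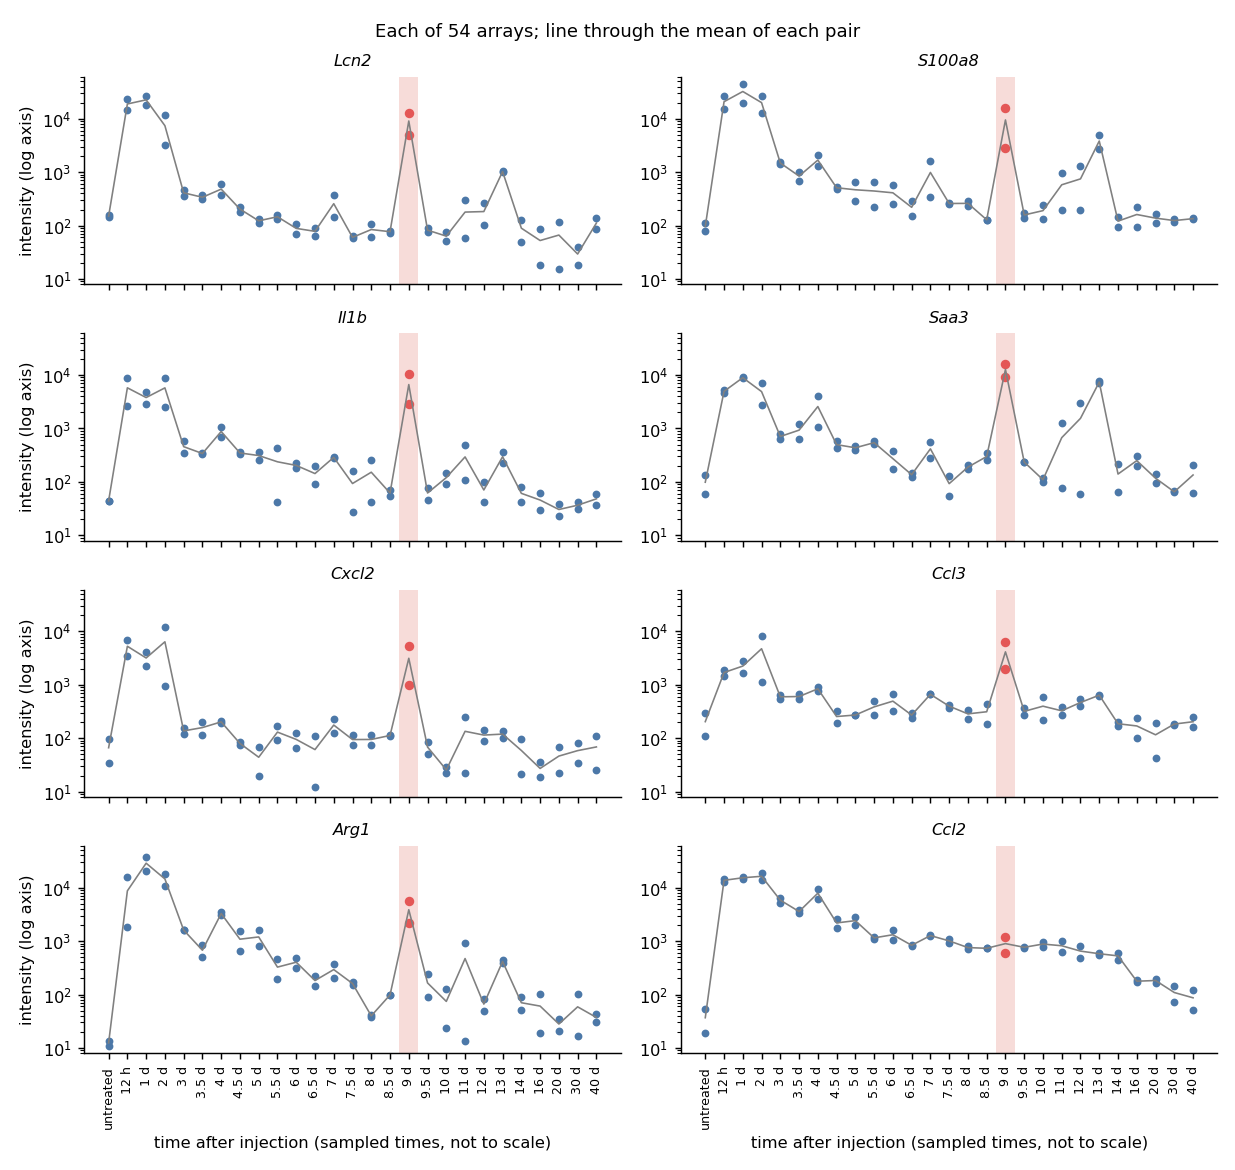
Intensity on a log axis for 8 genes on each of the 54 arrays, in order of the sampled times; points are arrays, the line joins the means of the pairs, and 9 d is shaded. The 2 arrays at 9 d stand out from their neighbours for all genes but Ccl2 (1204 and 589 at 9 d), and S100a8 (4998 and 2658) and Saa3 (7131 and 7648) are raised again at 13 d.

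The first days after injection were compared on arrays that are not among the 6 described. They were not wholly apart from the choice of members. The gene lists were chosen with earlier results of these data known. The probe set of each gene was the brightest over all 54 arrays, the early ones included. On Av2, 12 h, 1 d and 2 d were compared with untreated muscle by limma with Benjamini-Hochberg adjustment, and 20% of all 8087 genes tested rose and 21.1% fell. Of the 38 members 34 rose and none fell, with a median change of 3.41, beside 56 of 111 other inflammatory genes, or 50.5%. Il1b rose by 6.08 ± 0.61 (SE, adjusted p = 1.87e-09), and since both untreated arrays were under the floor this estimate depends on it. S100a8, of the neutrophil list, rose by 7.88 ± 0.66 (SE, adjusted p = 5.44e-11), and all 6 early arrays, from 12836 to 44558, lay above the untreated pair. Cxcl2 rose by 5.54 ± 0.60 (SE, adjusted p = 7.77e-09) and Ccl3 by 3.62 ± 0.54 (SE, adjusted p = 2.37e-06). The members without a call were Ccrl2 at 0.07, Cxcl12 at 0.23, Traf1 at 0.70 and Tnfaip3 at 1.47 (adjusted p = 0.905, 0.369, 0.194 and 0.0669). All 4 had their highest group mean at 9 d, though Traf1 on 9 d replicate 2, at 87.9, lay under the 2 d mean of 193. The calls of Il1a, Tnf and Ackr1 were lost when an untreated array was left out, at adjusted p up to 0.147, 0.0665 and 0.282, and that of Il1a also under a doubled floor or without some early arrays.

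On the A version, whose titles carry some of the same sample codes and which may hold the same RNA, 21.1% of 3649 genes rose and 27.8% fell. Of the 29 members tested there 21 rose and none fell. Saa3 rose by 2.74 ± 0.58 (SE, adjusted p = 0.00632) on A, Cxcl5 by 3.57 ± 0.33 (SE, adjusted p = 0.000213) and S100a8 by 4.71 ± 0.28 (SE, adjusted p = 4.91e-05). Ccl4 and Ccl3, which rose on Av2, gave 0.81 ± 0.66 (SE) and 1.65 ± 0.61 (SE) there with no call (adjusted p = 0.352 and 0.0562).

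The early change and the 9 d description overlapped in part. Of 90 inflammatory genes that rose in the first 2 d, 34 stood high at 9 d and 56 did not, under criteria that differ between the comparisons. Ccl2 had the largest early rise among the inflammatory genes, 7.86 ± 0.27 (SE, adjusted p = 2.74e-19), and Ccl7 rose by 6.40 ± 0.31 (SE) and Ccl9 by 5.02 ± 0.29 (SE) (adjusted p = 3.99e-16 and 2.9e-14), and none of the 3 stood high at 9 d. Mt1 and Hmox1 rose by 3.64 ± 0.16 (SE) and 3.59 ± 0.24 (SE) in the first 2 d (adjusted p = 9.24e-17 and 5.72e-13) and overlapped the neighbours at 9 d. Of 46 macrophage genes 42 rose early and 9 of those stood high at 9 d, whereas for neutrophil genes these counts were 15 and 10 of 20. The difference between these shares was not tested. In level, the 9 d mean was nearest to 2 d for 23 members, to 12 h for 10 and to 1 d for 5. Across 149 inflammatory genes the 9 d difference and the early change correlated at 0.63 (Pearson; Spearman 0.64), across 8087 genes at 0.48 (Spearman 0.38). These comparisons share no array, but genes are not independent replicates and the coefficients are descriptions.

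**Figure D4:**
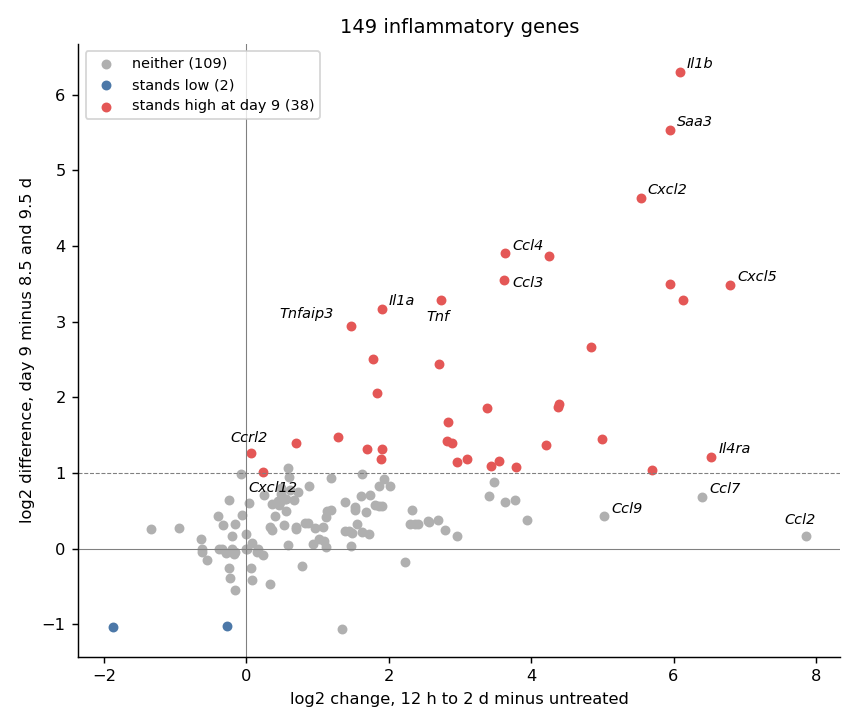
Each point is 1 of 149 inflammatory genes, with its log2 change from untreated muscle to the mean of 12 h, 1 d and 2 d on the x axis and its log2 difference between 9 d and its neighbours on the y axis; the dashed line marks 2-fold. Il1b, Saa3 and Cxcl2 are high on both. Ccl2 and Ccl7 changed early and lie under the dashed line at 9 d, at 0.17 and 0.69, and Cxcl12 and Ccrl2 show the reverse.

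No member was called between the neighbours themselves. At 9.5 d against 8.5 d limma called 3 of 11997 probe sets (0.025%; 723 at an unadjusted p under 0.05) and none of the 38 members. At 10 d and 11 d against 7.5 d and 8 d, the times on either side, it called none of 11997 (960 at an unadjusted p under 0.05), and the members' median change was 0.07. The sample codes of both 11 d arrays carry the same number, so that pair may share a source. For the 9 d contrast itself the same fit passed 293 probe sets (2.44%), and against 8 d and 10 d 267 (2.23%). These last counts come from the comparison that chose the members, so they describe it and are no independent test.

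Muscle genes were asked about next. The 9 lists covered contraction, metabolism, myogenesis, muscle signalling and membrane, and proteasome and atrophy, whose proteasome genes are not particular to muscle. Of their 245 measured genes 5 stood low (2.04%, beside 1.14% over all genes) and 7 stood high (2.86%, beside 2.38%). With no limit on size 100 lay below all 4 neighbours on both 9 d arrays, where 12.7% of all genes did, and 20 lay above, where 10.8% did. The median difference was -0.31, and it was -0.34 for the 141 among the brightest 10% of probe sets and -0.27 for the other 104. Over all genes the median was 0, and over 10 classes of brightness it stayed between -0.04 and 0.04.

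The lower side held many metabolic genes, each by a small amount. None of 68 genes of the respiratory chain and citric acid cycle stood low by 2-fold. Still, 40 lay below all neighbours, where 12.7% of all genes did, and none above, with a list median of -0.35. The summed intensity of the list was 377865 and 408756 at 9 d against 432815 to 509675 on the neighbours, so the groups did not overlap. Cox7a1, the heart and muscle isoform of a cytochrome c oxidase subunit, measured 705 and 634 at 9 d, 1359 and 1295 at 8.5 d and 1173 and 1238 at 9.5 d. For genes of fatty acid use the median was -0.46, with 16 of 24 below all neighbours, and Lpl, lipoprotein lipase, which fat cells share, measured 2320.2 and 2264 at 9 d, 5152 and 3607 at 8.5 d and 5744 and 5327 at 9.5 d. Glycolysis and glycogen genes had a median of -0.32, and Gbe1, the glycogen branching enzyme, stood low at -1.10. In the proteasome and atrophy list 15 of 28 lay below all neighbours, with a median of -0.33, though Psmd2 stood high at 1.07. In the muscle signalling and membrane list 10 of 24 lay below all neighbours and 1 above, with a median of -0.43. Set against 8 d and 10 d, the respiratory chain and citric acid cycle list had a median of -0.16. There it was -0.20 for fatty acid use, -0.10 for glycolysis and glycogen, -0.34 for proteasome and atrophy and -0.34 for muscle signalling and membrane. The size of the metabolic difference thus depended on the reference times.

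Genes of muscle identity were lower in places. Myf6, a myogenic factor of mature fibres, measured 1171 and 1224 at 9 d, 3087 and 2376 at 8.5 d and 2008 and 3163 at 9.5 d. Fgfr4, a growth factor receptor of regenerating myotubes, measured 65.2 and 82.7 and 162 to 182 on the neighbours. Mybph, a myosin binding protein, stood low at -1.08. Myod1 lay below the neighbours by less than 2-fold, at -0.65, and Myog, which drives differentiation, differed by -0.23 with overlap. The embryonic and perinatal myosins Myh3 and Myh8, made by new fibres, differed by 0.31 and 0.19. Ckm, muscle creatine kinase, and Mb, myoglobin, differed by 0.03 and -0.04.

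Fast contractile genes went the other way, and that count rests in part on single arrays. Pvalb, which buffers calcium in fast fibres, measured 26607 and 31896 at 9 d, 10256 and 17266 at 8.5 d and 17217 and 487 at 9.5 d. Acta1, skeletal actin, measured 23878 and 36838 at 9 d, 13496 and 18647 at 8.5 d and 18243 and 1089 at 9.5 d. Both genes were lowest on 9.5 d replicate 2, the array with the low 3' Gapdh value. Of 24 fast contractile genes 6 stood high, Pvalb, Acta1, Atp2a1, Myh4, Myl1 and Casq1, and 3 did without that array, 3 without 9 d replicate 2 and 2 after quantile normalization. The median of the list moved from 0.30 to 0.17, 0.19 and 0.01 in these cases. Myh4, the fast 2B myosin, measured 20544 and 56771 at 9 d, with the 9 d arrays themselves far apart, and 11156 to 18083 on the neighbours. For the whole set of muscle genes 4 stood high without 9.5 d replicate 2 and 3 after quantile normalization, and 6 and 5 stood low. The part of the control transcripts and of the 3' to 5' ratio in these values, and in those of the inflammatory genes, was not tested.

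**Figure D5:**
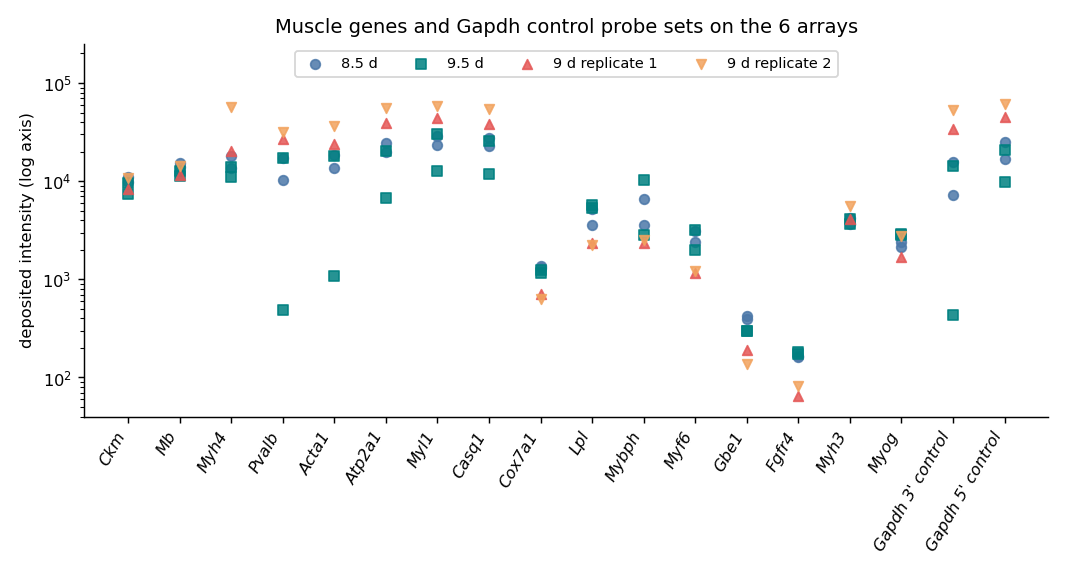
Intensity on a log axis of 16 muscle genes and the 2 Gapdh control probe sets on the 6 arrays, with 1 point per array. Cox7a1, Lpl, Myf6, Gbe1 and Fgfr4 are lower on both 9 d arrays, and the single 9.5 d array far below the rest for Pvalb, Acta1 and the 3' Gapdh control is replicate 2.

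In the first 2 d muscle genes fell in number: 170 of 245 fell and 13 rose, with a median of -1.36. These are limma calls with no limit on size, so the counts cannot be set directly against those of the 9 d description. Over all genes 21.1% fell and 20% rose. Cox7a1 changed by -3.36 ± 0.46 (SE, adjusted p = 5.74e-07) then, Ckm by -1.77 ± 0.30 (SE, adjusted p = 1.67e-05) and Mb by -2.01 ± 0.30 (SE, adjusted p = 1.77e-06). At 9 d Ckm and Mb overlapped the neighbours and Cox7a1 differed by -0.92. Across the 245 muscle genes the 9 d difference and the early change correlated at 0.27 (Spearman 0.34).

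Outside the lists, the genes with the largest low differences were mixed in function. Nup107, a nucleoporin, measured 103 and 107 at 9 d, 592 and 600.4 at 8.5 d and 713 and 623 at 9.5 d. Both 9 d arrays were far under the neighbours, and the 9 d mean was the lowest of the 27 groups. Nnat, neuronatin, an imprinted membrane proteolipid, was under the floor on both 9 d arrays and measured 307 to 417 on the neighbours, a difference of at least 2.47 in size. Dnajb5, a heat shock cochaperone, Zbtb16, a transcription factor, and Dll1, a Notch ligand, stood low at -2.47, -1.62 and -1.78. Of the 94 genes that stood low 48 fell in the first 2 d (51.1%, beside 21.1% of all genes) and 3 rose. Of the 196 that stood high, inflammatory or not, 122 rose in the first 2 d (62.2%, beside 20%) and 6 fell. Nup107 was not among those that changed early, at 0.29 ± 0.38 (SE, adjusted p = 0.62).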

How the data were processed

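RNA of gastrocnemius was hybridised to Affymetrix U74 arrays, and the deposited intensity of each probe set was used as the authors gave it. The software and the scaling behind it were not given in the sources used here. Intensities under a floor were raised to it before log2 was taken. On Av2 the floor was 64.7, the median over arrays of the percentile 20, and on A it was 729.0, which is 2 times the root mean square of values below 0. Probe sets with 1 gene symbol in GEO's platform annotation were used, the brightest for each gene. limma 3.58.1 (R 4.3.3) was fitted with 1 mean per time over all 54 Av2 or 12 A arrays, on probe sets with at least 2 arrays above the floor (11997 and 4455), with Benjamini-Hochberg adjustment over all of them and a threshold of 0.05. The fit was tested on simulated data. Python 3.11.15, pandas 2.3.3, numpy 2.4.6 and matplotlib 3.10.9 gave the descriptions.

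The members and gene lists were chosen with earlier results of these data known. Genes were named by a rule: every chemokine, cytokine and receptor gene that stood high, up to 4 high and 2 low genes of each other inflammatory, stress or cell list, up to 4 low and 2 high of each muscle list, the 10 largest differences each way, the genes next to the threshold and a set of reference genes. Mmp9, Chil1, Ltf, Fpr2, Ly6g, Mpo, Elane, Il1r1, Il18, Tnfrsf1a, Ifng, Ccr4, Nfkbia, Nfkbiz, Ier3, Birc3, Traf1, Icam1, Rela, Relb, C1qa, Mrc1, Csf1r, Fcgr1, Atp2a1, Myl1 and Casq1 were named after their values were seen. Floor, scaling, filter, fold, reference times and left-out arrays were varied.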

Additional observations from a re-analysis of the deposited data

How the results depend on the processing

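The count of 38 inflammatory genes standing high was 60 at 1.5-fold, 20 at 3-fold and 27 to 51 with 1 of the 6 arrays left out. The 422 probe sets past all neighbours became 1138 at 1.5-fold, 108 at 3-fold and 473 to 1096 with 1 array left out (1096 without 9 d replicate 1, 770 without replicate 2). The 5 muscle genes standing low became 8 at 0.5 times the floor, 34 at 1.5-fold, 0 at 3-fold and 6 to 12 with 1 array left out (8 without 9 d replicate 1, 12 without replicate 2). The 7 standing high became 3 after quantile normalization, 12 at 1.5-fold, 2 at 3-fold and 4 to 10 with 1 array left out (4 without 9 d replicate 2 or 9.5 d replicate 2). In limma, the 293 probe sets of 9 d against its neighbours became 5 with the 6 arrays alone, 141 against 9.5 d alone, 23 with a required change of 2-fold and 191 to 365 with 1 array left out (191 without 9.5 d replicate 2). The 267 against 8 d and 10 d became 151 to 353 (151 without 10 d replicate 2, 152 and 177 without 8 d replicate 1 and replicate 2). The 3 of 9.5 d against 8.5 d became 1 at 0.5 times the floor, 1 under a stricter filter and 6 to 84 (84 and 13 without 8.5 d replicate 1 and replicate 2, 6 and 8 without those of 9.5 d). The 0 of 10 d and 11 d against 7.5 d and 8 d became 2 at 2 times the floor, 1 with no filter and 0 to 3. The 2156 of the first 2 d on A became 1358 with no filter and 1324 to 2504 (1416 and 1324 without untreated replicate 1 and replicate 2), and the 4348 on Av2 became 3292 to 4692. The cause of these changes was not tested. Of the 9 d differences of named genes 1179 moved by less than the spread between replicates and 122, of 58 genes, by more. Of their tested changes 3217 stayed on their side of the threshold, 25 lost a call and 10 gained one, and no called value changed sign. List medians near 0 did: developmental sarcomere genes went from -0.15 to 0.22 without 9 d replicate 1, slow contractile genes from 0.15 to -0.10 without 9 d replicate 2, and metal and heat shock genes from 0.01 to -0.10 without 9 d replicate 1. Cxcl10 lost its early call at 2 times the floor and without either untreated array. The replicate numbers did not pair the arrays: replicate differences correlated at 0.046, -0.058 and -0.055 among 8.5 d, 9 d and 9.5 d. A block was also set by the number in the sample code, which the pairs of some times share. With it the counts were 308 for 9 d against its neighbours, 276 against 8 d and 10 d, 3, 0, 4380 on Av2 and 1690 on A. Cyclic loess, the left-out arrays of the 9 d description, the count of muscle genes standing high and the alternatives for single lists were chosen after seeing the data. Each time has 2 arrays, and levels near the floor of 64.7 have no order.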
